A study of Mus musculus with 6 samples.

Results

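The Rab GTPases are small membrane-bound switch proteins, and 57 genes of the 15282 in the deposited expression table carried a symbol made of Rab, a number and at most a letter and a further digit. These 57 genes were taken by that rule on their names, without reference to their values. Rab-like genes, Rab effectors and Rab regulators whose symbols have another form stayed outside the 57 and were described as separate lists.

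RNA sequencing compared mature dendritic cells (maDC) with the cells recovered after these had been kept with spleen stroma (diffDC). The dendritic cells were grown from the bone marrow of wild-type C57BL/6 mice. For maDC, marrow cells received IL-4 and GM-CSF, cytokines that drive dendritic cell growth in culture, over 6 days, then lipopolysaccharide (LPS), a bacterial activator, over 24 hours, and were selected on beads for CD11c, the alpha X integrin that dendritic cells carry. For diffDC, maDC made in this way were held on spleen stromal cells for a further 9 days, so that both groups share the cytokines, the LPS and the bead selection. The labels list 3 libraries per group, 6 in all, but the table holds 1 pooled read number per gene and group, so no spread between libraries could be estimated and no test across libraries was made.

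A Rab protein cycles between a GDP-bound form, held in the cytosol by GDP dissociation inhibitors, and a GTP-bound form on a membrane, where it recruits effectors such as tethers, motors and sorting complexes. Exchange factors load GTP, GTPase-activating proteins return the protein to the GDP form, and different Rabs mark different compartments along the secretory and endocytic routes. In dendritic cells and macrophages these routes carry antigen uptake, phagosome maturation, delivery of major histocompatibility complex molecules and cytokine release.

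The pools held 69190437 reads for maDC and 89836110 reads for diffDC. A gene was called higher or lower where its ratio of diffDC over maDC, scaled by the trimmed mean of M values (TMM), was at least 2-fold and its exact 95% counting interval left out no difference. The intervals hold counting error in the pools and say nothing of the spread between cultures. By this rule 3562 of all genes (23.3%) were called higher in diffDC and 3201 (20.9%) lower.

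The dendritic cell markers and the markers of other cells also moved between the pools. Of 8 conventional dendritic cell markers, 7 were called lower, and their summed level went from 12170 to 634 counts per 1000000 reads (CPM), with Itgax, which encodes CD11c, uncalled at a log2 ratio of -0.21. Of 8 macrophage markers, 7 were called higher, with a summed level of 943 CPM in maDC and 12780 in diffDC. Of 17 measured markers of fibroblast and reticular stroma, cells that a spleen stroma culture can hold, 13 were called higher and 1 lower. Their sum was 155.9 CPM in maDC and 2527 in diffDC, with Fn1 holding the most reads in both pools, 8459 and 137671. All 5 cell cycle genes were called higher, from a summed 177.9 to 958 CPM. Of 4 measured endothelial markers, 3 were called lower, from a summed 171.1 to 43.4 CPM. Kdr held the most reads of these 4 in both pools, 11063 and 3744. None of the measured markers of these 5 lists was at 0 in either pool. The part of these markers' cells in the Rab values below was not tested, and in these bulk pools fewer cells of a type and less RNA per cell cannot be told apart.

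Of the 57 Rab genes, 10 (17.5%) were called higher in diffDC and 12 (21.1%) lower, beside 23.3% and 20.9% of all genes, so the shares called lay below and near the background. The median log2 ratio of the Rab genes was 0.07, beside 0.03 over all genes. The other 35 Rab genes were uncalled, and 27 of these lay within 1.5-fold of no difference. Summed over the family, Rab reads made up 0.415% of all maDC reads (95% exact counting interval 0.413 to 0.416%) and 0.458% of all diffDC reads (0.457 to 0.459%). The family as a whole thus held a similar small share of both pools, while single members with reads in both pools differed by up to 47.7-fold.

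The scaling sets the balance of the calls. The authors' own library factor, recovered from their log2 ratios, moved the median of all genes to 0.46 and that of the Rab genes to 0.51 on the log2 scale. Under it 13 Rab genes (22.8%) were called higher and 8 (14%) lower, beside 32.2% and 15.7% of all genes. The same direction was called under both scalings for 18 Rab genes, and Rab12, Rab13, Rab27a and Rab38 lost the lower call while Rab1a, Rab1b and Rab32 gained the higher call. In the authors' deposited table, 52 of the 57 Rab genes had a q-value under 0.05, 33 of them higher and 19 lower in diffDC, where 87.2% of all genes passed that limit.

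**Figure D1:**
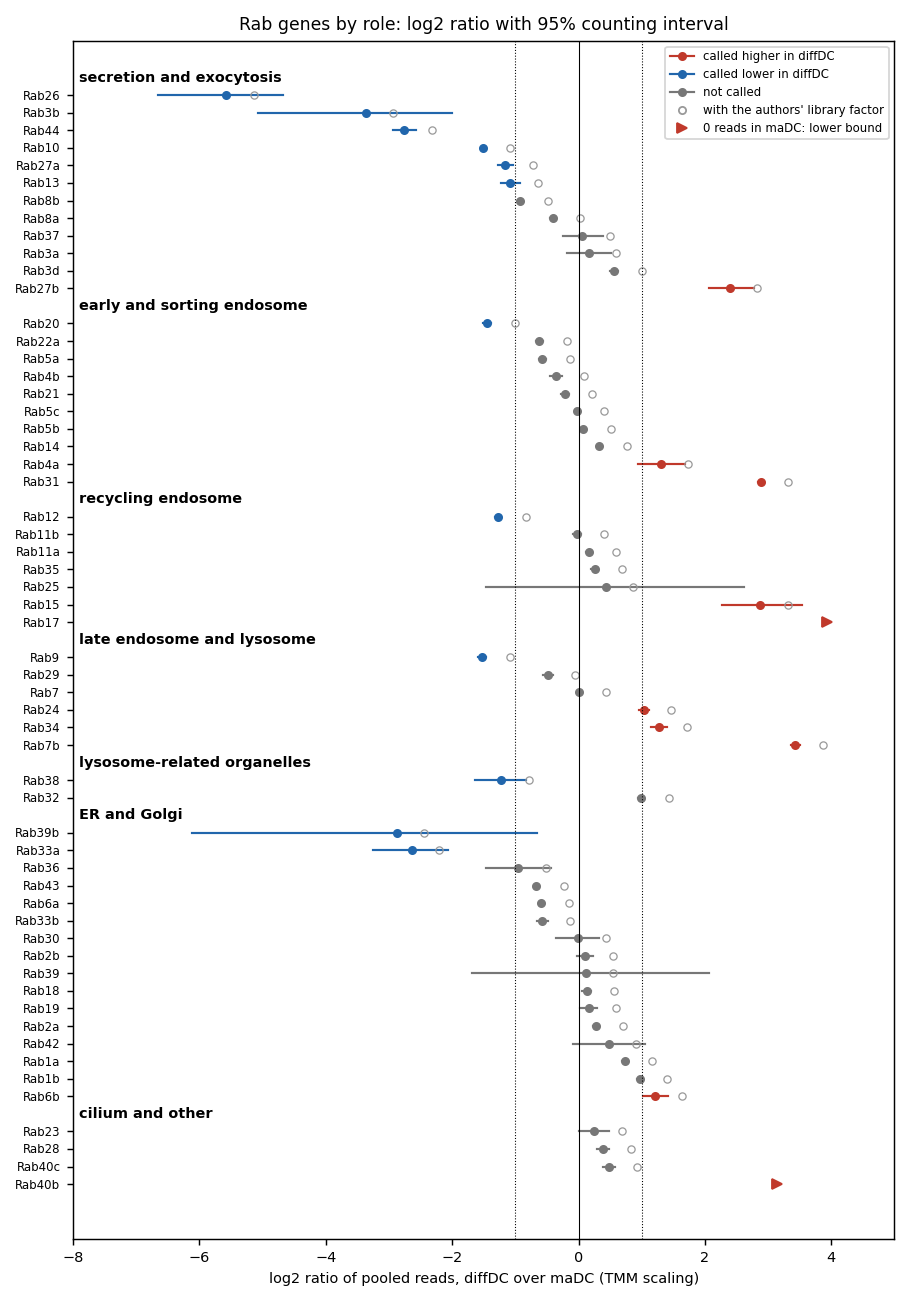
Log2 ratio of pooled reads, diffDC over maDC with TMM scaling, for each of the 57 Rab genes grouped by role. Bars are 95% counting intervals, open circles use the authors' library factor, and dotted lines mark the 2-fold limit. Triangles mark the ratio at a floor of 3 maDC reads for the 2 genes at 0 reads in maDC. The secretory group holds 6 of the 12 genes called lower.

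**Figure D2:**
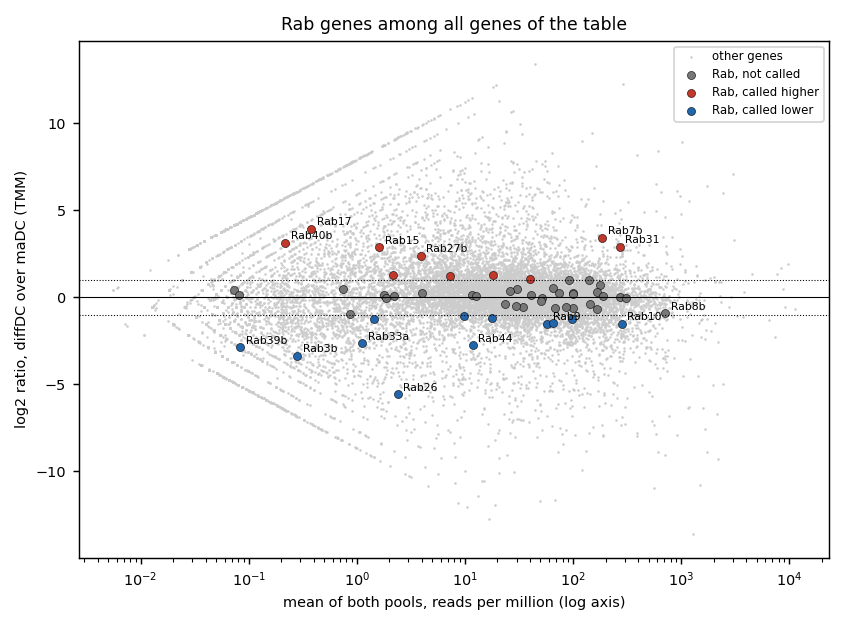
Log2 ratio against the mean level in CPM (log axis) for all 15282 genes in grey and the 57 Rab genes in colour. In place of 0, 0.5 reads were used for the grey genes and a floor of 3 maDC reads for Rab17 and Rab40b. Rab7b and Rab31 stand highest among the abundant Rab genes, and Rab26 lies lowest of the family.

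The coding starts of 4 genes show the sequences behind the pair of members with the most added reads and their closest relatives in the table. Each line gives 90 bases from the start codon of the mouse GENCODE M21 transcript (GRCm38), 5′ to 3′, with capitals at the bases that differ within a pair. Rab7 lies on chromosome 6 from 87999106 to 88045270 on the minus strand, Rab7b on chromosome 1 from 131688695 to 131715439 on the plus strand, Rab22a on chromosome 2 from 173659760 to 173707343 on the plus strand, and Rab31 on chromosome 17 from 65651729 to 65772752 on the minus strand. In the first pair 60 of the 90 bases are the same, and in the second 68 of the 90, with Rab31 read from its coding base 4, since its reading frame opens with an extra codon.
Rab7: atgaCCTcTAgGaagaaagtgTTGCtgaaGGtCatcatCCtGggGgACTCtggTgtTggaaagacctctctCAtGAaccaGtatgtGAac
Rab7b: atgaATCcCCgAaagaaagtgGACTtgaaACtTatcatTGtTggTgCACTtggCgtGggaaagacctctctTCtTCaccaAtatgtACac
Rab22a: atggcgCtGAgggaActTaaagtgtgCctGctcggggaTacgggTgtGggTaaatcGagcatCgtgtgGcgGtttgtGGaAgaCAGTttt
Rab31: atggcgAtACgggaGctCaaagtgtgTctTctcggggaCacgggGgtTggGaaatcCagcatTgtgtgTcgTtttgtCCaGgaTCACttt
Over the whole proteins Rab7b and Rab7 were identical at 49.7% of aligned residues of the shorter, and Rab31 and Rab22a at 71.1%.

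For the groups that follow, each Rab gene was placed in a single role, although several act in more than 1 place. Counts by role were not among the planned results, and they depend on this placing. Late endosome and lysosome Rabs included the member with the largest fold higher among those with reads in both pools. Of 6 such genes, 3 were called higher and 1 lower, with a median log2 ratio of 0.52; here and in the groups below, the shares over all genes were 23.3% higher and 20.9% lower. Rab7b, which controls transport from late endosomes to the trans-Golgi network and limits Toll-like receptor signalling in macrophages, had 1936 reads in maDC and 30922 in diffDC. It was 10.8-fold higher in diffDC (95% counting interval 10.3 to 11.3). Rab34, a Rab of lysosome positioning, macropinocytosis and cilia, went from 666 to 2377 reads and was 2.42-fold higher (2.22 to 2.64). Rab24, linked to autophagy, had 1653 and 4991 reads and stood just over the limit at 2.04-fold higher (1.93 to 2.16). Exons of Rab24 share bases with Prelid1 on the opposite strand, and the sources used here do not give whether the counting used strand.

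The other late endosomal members lay at or below no difference. Rab9, which returns mannose 6-phosphate receptors from late endosomes to the Golgi, went from 5754 to 2961 reads and was 2.87-fold lower (2.75 to 3). Rab7, the general organiser of fusion between late endosomes and lysosomes, had 17543 and 25904 reads, a ratio of 1 after scaling with an interval from 0.981 to 1.02. Rab29, a partner of the kinase Lrrk2, was uncalled at 2270 and 2402 reads. Rab7b therefore moved apart from Rab7: there were 0.11 reads of Rab7b for each read of Rab7 in maDC and 1.19 in diffDC. That ratio was 10.8-fold higher in diffDC (95% counting interval 10.3 to 11.4), and no library scaling enters it. The neighbouring Rab gene on chromosome 1 is Rab29, 151784 bases from Rab7b, with a log2 ratio of -0.48 beside 3.43 for Rab7b.

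Early and sorting endosome Rabs were mostly uncalled, with 2 of 10 called higher and 1 lower and a median log2 ratio of -0.12. Rab31, a close relative of Rab22a that works between the trans-Golgi network and endosomes, had 3985 reads in maDC and 43496 in diffDC and was 7.39-fold higher (7.15 to 7.64). Rab4a, a Rab of fast recycling from early endosomes, had 79 and 288 reads and was 2.47-fold higher (1.92 to 3.21). Rab20, which acts in phagosome maturation, had 6315 and 3424 reads and was 2.72-fold lower (2.61 to 2.84). Under the authors' factor Rab20 stood at a log2 ratio of -1.01, close to the limit.

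The core early endosome genes differed little. Rab5c, one of 3 Rab5 genes that direct homotypic fusion of early endosomes, had 20309 and 29335 reads and a log2 ratio of -0.03. Rab5b had 11919 and 18493 reads and a log2 ratio of 0.07, and Rab5a had 6796 and 6772 reads and a log2 ratio of -0.57. Among the 3, Rab5a thus had the lowest ratio, and the reads of Rab5c per read of Rab5a went from 2.99 to 4.33. Rab14, which works between the Golgi and endosomes and on phagosomes, was uncalled at 9483 and 17526 reads. Rab21, an integrin-trafficking Rab, and Rab4b had log2 ratios of -0.21 and -0.36 and were also uncalled. Rab22a, an endosomal sorting Rab, had 5385 and 5182 reads and was uncalled at a log2 ratio of -0.62. There were 0.74 reads of Rab31 for each read of Rab22a in maDC and 8.39 in diffDC, a ratio 11.3-fold higher (10.8 to 11.9).

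Recycling endosome Rabs gave 2 higher and 1 lower call among 7 genes, with a median log2 ratio of 0.26. Rab15, which acts on recycling from early endosomes, went from 24 to 260 reads and was 7.33-fold higher (4.82 to 11.7). Rab17, known from transcytosis in epithelial cells, had no maDC read (0) and 68 in diffDC, which is at least 15.3-fold higher when the maDC pool is set to a floor of 3 reads. Both calls rest on few reads, even in diffDC. Rab12, which directs transferrin receptor to degradation, had 9164 and 5618 reads and was 2.41-fold lower (2.33 to 2.49), a call that was lost at a log2 ratio of -0.83 under the authors' factor. The general recycling Rabs were uncalled: Rab11a had 6066 and 10051 reads, Rab11b 3411 and 4945 reads, and Rab35 4328 and 7638 reads. Rab25, the epithelial relative of Rab11, had 4 and 8 reads, too few to show a difference of this size at this depth.

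Secretory Rabs, as grouped here, held 6 of the 12 genes called lower. Of 12 such genes, 1 (8.33%) was called higher and 6 (50%) lower, beside 23.3% and 20.9% of all genes, with a median log2 ratio of -1.0. With the authors' factor 1 (8.33%) was called higher and 4 (33.3%) lower, beside 32.2% and 15.7% of all genes, with a median of -0.56. Rab10, which moves vesicles to the plasma membrane, among them those carrying Toll-like receptor 4 in macrophages, had 27889 reads in maDC and 14447 in diffDC. It was 2.85-fold lower (2.79 to 2.91) and stayed called under the authors' factor at a log2 ratio of -1.08. Rab10 shares exon bases with an annotated opposite-strand transcript, Rab10os.

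Several secretory members called lower were of low or intermediate level. Rab26, a Rab of secretory granules, had 323 reads in maDC and 10 in diffDC and was 47.7-fold lower (25.6 to 100). Exons of Rab26 share bases with Traf7 on the same strand and AC132367.1 on the opposite strand, and its maDC value of 323.27 carried a decimal. Rab44, a large Rab with calcium-binding motifs known from mast cells and osteoclasts, had 1395 and 305 reads and was 6.75-fold lower (5.96 to 7.67). Rab3b, of the Rab3 group that regulates exocytosis, had 35 and 5 reads and was 10.3-fold lower (4.03 to 33.8). These 3 kept the call under both scalings. Rab27a, needed for secretory lysosome and exosome release, had 1616 and 1071 reads and was 2.23-fold lower (2.06 to 2.41). Rab13, a Rab of junction and surface protein delivery, had 891 and 623 reads and was 2.11-fold lower (1.9 to 2.34). The calls of Rab27a and Rab13 were lost under the authors' factor, at log2 ratios of -0.72 and -0.64.

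The remaining secretory members were uncalled or higher. Rab27b, the second Rab27 gene, also acts in exosome release and granule docking, and had 77.4 reads in maDC and 603 in diffDC. It was 5.27-fold higher (4.18 to 6.81). Rab27b and Rab27a, whose proteins are 72.9% identical, formed the 1 pair sharing a number with opposite calls. There were 0.0479 reads of Rab27b for each read of Rab27a in maDC and 0.563 in diffDC, a ratio 11.7-fold higher (9.16 to 15.1), while Rab27a kept more reads than Rab27b in both pools. Rab8b, a Rab of exocytic transport, had 61649 and 48104 reads and lay just inside the limit at 1.89-fold lower (1.87 to 1.92). Rab8a, Rab37, Rab3a and Rab3d were uncalled, at log2 ratios between -0.41 and 0.56.

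Rab32 and Rab38, paired Rabs of lysosome-related organelles such as the melanosome, differed from each other. Rab38 had 135 and 85 reads and was 2.35-fold lower (1.78 to 3.11), while Rab32 had 3876 and 11375 reads and was 1.99-fold higher (1.92 to 2.06), just short of the limit. Reads of Rab38 per read of Rab32 went from 0.0348 to 0.00747, 4.66-fold lower (3.54 to 6.13). Under the authors' factor Rab32 was called higher and Rab38 uncalled.

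Endoplasmic reticulum and Golgi Rabs were the largest group and mostly uncalled, with 1 of 16 called higher, 2 lower and a median log2 ratio of 0.11. Rab6b, a Golgi Rab best known from neurons, had 275 and 940 reads and was 2.31-fold higher (2.02 to 2.66), while its widespread relative Rab6a had 7909 and 7781 reads and was uncalled at a log2 ratio of -0.59. Rab33a, a Golgi Rab also linked to secretion, had 131 and 31 reads and was 6.24-fold lower (4.19 to 9.55), beside 2706 and 2692 reads for the uncalled Rab33b, which binds the autophagy protein Atg16l1. Rab39b had 10 maDC and 2 diffDC reads, a ratio of 7.38 lower with an interval from 1.57 to 69.3. In each of these subfamilies the called gene had fewer reads than the uncalled relative in both pools, except that Rab39b had 10 reads beside 5 of Rab39 in maDC.

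The main carriers of transport from the endoplasmic reticulum to the Golgi, Rab1a and Rab1b, leaned higher. Rab1b had 6058 and 17473 reads and was 1.95-fold higher (1.9 to 2.01), and Rab1a had 8532 and 20918 reads and was 1.66-fold higher (1.62 to 1.7). Both were uncalled with TMM and called higher with the authors' factor, at log2 ratios of 1.40 and 1.17. Rab2a, which works between the Golgi and its neighbours, had 5844 and 10437 reads and a log2 ratio of 0.27. Rab43, a Golgi Rab linked to cross-presentation in mouse dendritic cells, had 13537 and 12605 reads and a log2 ratio of -0.67. Rab36 had 76.1 and 58 reads and stood just inside the limit at 1.94-fold lower (1.36 to 2.77). The other 6 of this group, Rab2b, Rab18, Rab19, Rab30, Rab39 and Rab42, had log2 ratios from -0.01 to 0.48, with 5 and 8 reads for Rab39 and 39.9 and 82.1 for Rab42.

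Of 4 members of the cilium and other roles, 1 was called. Rab40b, a Rab with a domain that recruits a ubiquitin ligase, had no maDC read (0) and 39 in diffDC. It was 8.8-fold higher by the same floor, and the lower end of its 95% counting interval was a log2 ratio of 2.77. Rab40c, its relative, had 1610 and 3317 reads, Rab28, a ciliary Rab, 1461 and 2835 reads, and Rab23, a negative regulator of Hedgehog signalling, 234 and 411 reads. These last 3 had log2 ratios between 0.25 and 0.48 and were uncalled.

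The depth of the members differed widely. At least 1000 reads in both pools were found for 33 Rab genes, and fewer than 100 in both for 8. Of the 22 called Rab genes, 10 had at least 1000 reads in a pool, 4 of them higher and 6 lower. Read numbers were whole in both pools for 32 Rab genes, and 25 carried decimals, a sign of reads divided among transcripts or genes, among them 9 of the called genes. Exon bases were shared with another annotated gene for 20 Rab genes, 7 of them called.

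Levels per length put the folds in proportion. The level was taken as reads per kilobase of annotated exon per 1000000 scaled reads. In maDC the 10 highest Rab genes were Rab8b at 201, Rab5c at 143, Rab10 at 122, Rab7 at 104, Rab20 at 69.9, Rab9 at 50.7, Rab12 at 46.6, Rab5b at 43.7, Rab2a at 42.2 and Rab1b at 41.1. In diffDC the highest was Rab5c at 140, followed by Rab31 at 119, Rab8b at 106, Rab7 at 104, Rab1b at 80.3, Rab7b at 69.8, Rab1a at 57.5, Rab2a at 51.1, Rab32 at 50.8 and Rab5b at 45.9. Rab31 went from rank 20 to rank 2 and Rab7b from rank 31 to rank 6, while Rab10 went from rank 3 to rank 11, Rab12 from 7 to 19, Rab20 from 5 to 16 and Rab9 from 6 to 21. The 10 highest genes of each pool held 66.4% and 65.5% of the family's summed level, so the concentration was alike. Rab10, Rab20, Rab9 and Rab12 were among the 10 highest only in maDC, and Rab31, Rab7b, Rab1a and Rab32 only in diffDC. The others were among the 10 highest in both pools.

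The make-up of Rab reads showed the same exchange. Rab8b made up 21.5% of Rab reads in maDC (95% exact counting interval 21.3 to 21.6%) and 11.7% in diffDC (11.6 to 11.8%). Rab10 went from 9.72% (9.61 to 9.83%) to 3.51% (3.45 to 3.57%). Rab31 went from 1.39% (1.35 to 1.43%) to 10.6% (10.5 to 10.7%), and Rab7b from 0.675% (0.645 to 0.705%) to 7.51% (7.43 to 7.59%). These shares do not depend on the library scaling.

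**Figure D3:**
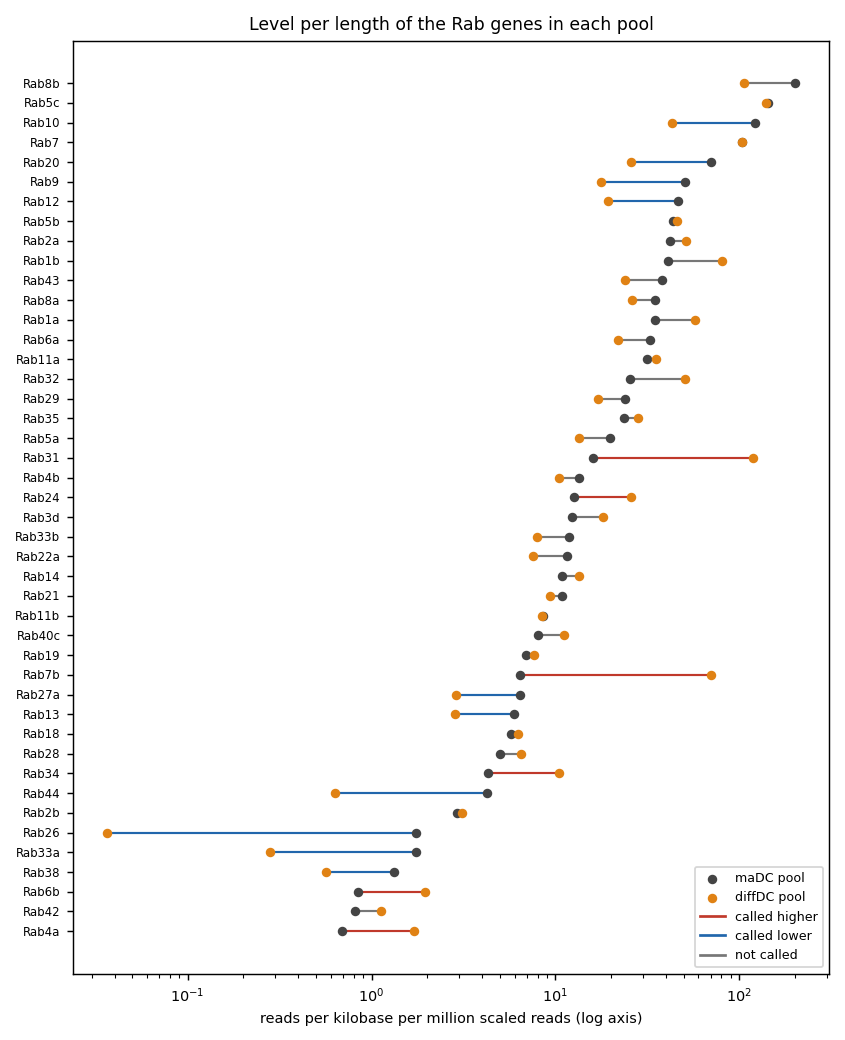
Level per length (reads per kilobase per 1000000 scaled reads, log axis) in the maDC and diffDC pools for the 44 Rab genes that reached 1 in either pool, ordered by the maDC level, with lines coloured by call. Rab31 goes from 16.1 to 119 and Rab7b from 6.45 to 69.8, while Rab10 goes from 122 to 42.9.

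Rab genes that share a number did not always share a call. The 57 members held 13 such subfamilies with 28 members and 17 pairs, and the calls differed in 9 pairs. With 17.5% of the family called higher and 21.1% lower, unrelated members differ in call too. Their rate was not computed, so the 9 pairs are no trait of shared numbers. Besides the pairs above, reads of Rab6b per read of Rab6a were 3.47-fold higher in diffDC (3.02 to 3.99), and those of Rab33b per read of Rab33a were 4.2-fold higher (2.83 to 6.24). Reads of Rab4b per read of Rab4a were 3.16-fold lower (2.44 to 4.09), and those of Rab3b per read of Rab3a 11.5-fold lower (4.38 to 30.3). The closest pairs in protein sequence nearly kept their ratio: Rab1b and Rab1a, 92.5% identical, changed their ratio by 1.18-fold (1.13 to 1.22), and Rab11b and Rab11a, 91.2% identical, by 1.14-fold (1.08 to 1.21). Rab6b and Rab6a, at 89.4%, and Rab4b and Rab4a, at 86.4%, are close pairs with different calls. Pairs without a shared number that were each other's nearest relative in the table gave further different calls. Reads of Rab37 per read of Rab26 went from 0.433 to 21.6, 49.9-fold higher (25.7 to 96.9), with 140 and 216 reads for Rab37 itself. Reads of Rab36 per read of Rab34 were 4.68-fold lower (3.29 to 6.66).

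**Figure D4:**
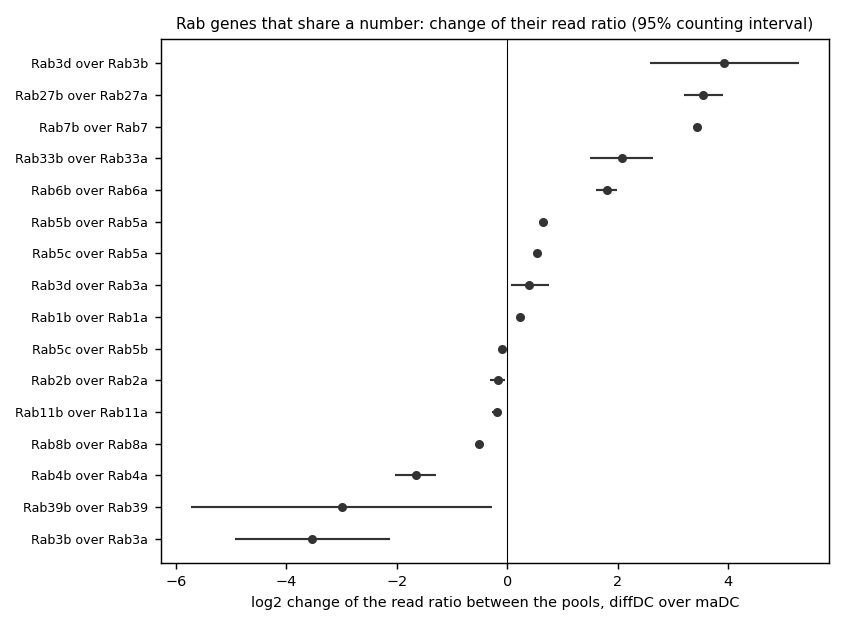
Change between the pools, on the log2 scale, of the read ratio of Rab genes that share a number; points are diffDC over maDC and bars 95% counting intervals. The ratios of Rab27b over Rab27a and of Rab7b over Rab7 were 11.7-fold and 10.8-fold higher in diffDC, and those of Rab1b over Rab1a, Rab2b over Rab2a and Rab11b over Rab11a lie near 0; Rab40c over Rab40b is left out because Rab40b had 0 reads in maDC.

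The members lie on 18 chromosomes, and none of the 3 closest neighbouring pairs shared a called direction. Rab31 and Rab12, 721759 bases apart on chromosome 17, had log2 ratios of 2.89 and -1.27. Rab43 and Rab7, 186941 bases apart on chromosome 6, were both uncalled. The bases just upstream of the start site are shown for 4 called members, the 2 with the largest log2 ratios in each direction among those with at least 1000 reads in a pool, an entry in the RefSeq promoter table (GRCm38) and no annotated exon in the window. Each window is 150 bases long, 5′ to 3′ on the gene's own strand, and capitals mark a match to any of 6 searched motifs. The windows are chr17:65772753-65772902 on the minus strand for Rab31, chr11:78188277-78188426 on the plus strand for Rab34, chrX:166479868-166480017 on the minus strand for Rab9 and chr12:3309970-3310119 on the minus strand for Rab10.
Rab31: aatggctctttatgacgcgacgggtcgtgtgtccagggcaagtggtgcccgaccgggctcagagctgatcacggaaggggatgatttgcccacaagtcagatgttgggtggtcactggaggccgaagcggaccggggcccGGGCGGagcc
Rab34: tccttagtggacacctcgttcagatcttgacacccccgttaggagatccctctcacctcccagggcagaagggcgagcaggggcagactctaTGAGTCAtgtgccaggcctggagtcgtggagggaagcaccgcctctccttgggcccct
Rab9: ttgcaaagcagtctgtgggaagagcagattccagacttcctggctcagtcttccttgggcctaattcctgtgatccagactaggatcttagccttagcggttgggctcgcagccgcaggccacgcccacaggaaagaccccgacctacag
Rab10: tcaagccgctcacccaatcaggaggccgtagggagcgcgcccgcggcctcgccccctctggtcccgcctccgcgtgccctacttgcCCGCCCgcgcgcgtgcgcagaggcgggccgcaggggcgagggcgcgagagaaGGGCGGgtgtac
The capitals are a GC box in Rab31, an AP-1 match in Rab34 and 2 GC boxes in Rab10, and the window of Rab9 held no match.

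The same search was run on all 46 Rab genes with an entry in that table and on all 27025 of its genes, on both strands, with each motif counted on its own whether or not its match overlapped another. The GC box GGGCGG was present in 27 of 46 Rab windows (58.7%), beside 29% of all windows. Those 27025 windows were not limited to the 15282 genes of the expression table or matched to the Rab genes in level. The difference is therefore not shown to be a trait of Rab genes. It was found in 3 of 7 windows of genes called higher, 5 of 9 called lower and 19 of 30 uncalled. The other motifs were rare: the interferon regulatory factor motif GAAANNGAA was in 1 Rab window (3.96% of all windows), the kappaB motif GGANNTTCC in 0 (2.34%) and the AP-1 motif TGANTCA in 1 (4.26%). The E-box CACGTG was in 3 Rab windows (4.28% of all) and the PU.1 motif GAGGAAG in 3 (6.71%). A match is only a run of letters, and its use by a factor was not measured.

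The proteins that load, unload and read Rabs were followed in 6 lists with 132 measured genes. Of these, 28 were called higher and 33 lower, beside 23.3% and 20.9% of all genes. With the authors' factor the counts were 37 and 27, beside 32.2% and 15.7% of all genes. Of 34 exchange factors, 8 (23.5%) were called higher and 6 (17.6%) lower, near the 23.3% and 20.9% of all genes. Dennd2c, a DENN-domain exchange factor, had 77 and 1858 reads and was 16.3-fold higher (13 to 20.8). Rab3il1, an exchange factor of the Rab8 and Rab3 group, had 2028 and 29292 reads and was 9.78-fold higher (9.35 to 10.2). Dennd3, an exchange factor for Rab12, had 17030 and 684 reads and was 36.8-fold lower (34.1 to 39.7), a call kept with the authors' factor, under which the lower call of Rab12 was lost. Dennd2a had 7356 and 1413 reads and was 7.69-fold lower (7.26 to 8.14).

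Of 39 GTPase-activating proteins, 8 (20.5%) were called higher and 11 (28.2%) lower, beside 23.3% and 20.9% of all genes, with a median log2 ratio of 0.00. Tbc1d16 had 384 and 4189 reads and was 7.39-fold higher (6.65 to 8.22), and Sgsm3 had 461 and 2005 reads and was 2.95-fold higher (2.66 to 3.27). Sgsm1 had 438 and 24.6 reads and was 26.3-fold lower (17.3 to 40.4), and Tbc1d8 had 19271 and 1902 reads and was 15-fold lower (14.3 to 15.7). Those 4 genes all carry the TBC domain that speeds GTP hydrolysis by Rabs. Tbc1d4, the TBC protein known to act on Rab10, had 31026 and 11811 reads and was 3.88-fold lower (3.8 to 3.96). Its relative Tbc1d1 had 10942 and 8735 reads and was uncalled at a log2 ratio of -0.89. Dennd4c, an exchange factor for Rab10, had 7855 and 35217 reads and was 3.04-fold higher (2.96 to 3.11). Of the other Dennd4 genes, Dennd4a was 2.48-fold lower (2.43 to 2.53), a call lost with the authors' factor. Dennd4b was uncalled at a log2 ratio of 0.23. Exchange factors and GTPase-activating proteins act on a Rab in opposite ways, and an effect of these levels on Rab10 was not tested. Tbc1d4, Tbc1d1 and the Dennd4 genes were named after their values were seen.

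The common machinery that all Rabs share was mostly uncalled. Of 8 genes of prenylation and GDP dissociation inhibition, 1 (12.5%) was called higher and 0 lower, beside 23.3% and 20.9% of all genes. That gene was Chml, a Rab escort protein, with 64 and 313 reads, 3.31-fold higher (2.52 to 4.4). Gdi2, a GDP dissociation inhibitor, had 30554 and 54715 reads and a log2 ratio of 0.28. It was uncalled and was named after its values were seen.

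Of 39 measured effectors, 6 (15.4%) were called higher and 14 (35.9%) lower, beside 23.3% and 20.9% of all genes. Their median log2 ratio was -0.38. With the authors' factor 9 (23.1%) were higher and 13 (33.3%) lower, beside 32.2% and 15.7% of all genes. Rab11fip1, a Rab11 effector of recycling, had 34031 and 4620 reads and was 10.9-fold lower (10.5 to 11.2). Rab11fip4 had 485 and 102 reads and was 7.01-fold lower (5.66 to 8.78), while Rab11fip5 had 5619 and 30842 reads and was 3.72-fold higher (3.61 to 3.82). Rab11fip2 and Rab11fip3 were uncalled, at log2 ratios of -0.38 and 0.11, so the 5 genes of this effector family went in both directions. Rab11fip2, Rab11fip3 and Rab11fip5 were named after their values were seen, and Rab11a and Rab11b were uncalled. Osbpl1a, a Rab7 effector, had 1046 and 6548 reads and was 4.24-fold higher (3.97 to 4.53). Sytl2, an effector of Rab27, had 2 maDC and 619 diffDC reads, a ratio of 210 with an interval from 57.8 to 1734.

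Known Rab27 effectors of the list went in both directions. Besides Sytl2, Mlph was called higher, with 9 and 103 reads. Myrip with 98 and 3 reads, Exph5 with 64 and 5, Sytl4 with 32 and 3 and Sytl3 with 74.7 and 34.3 were called lower. Sytl1 with 32 and 25 reads and Unc13d, needed for secretory granule priming, with 5677 and 4543 reads, were uncalled, as were Rph3al with 2 and 3 reads and Rph3a with 5 and 4. Apart from Sytl2 these were named after their values were seen, and all but Sytl2 and Unc13d had a mean under 1 CPM.

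Of 7 measured Rab-like and large relatives, 4 (57.1%) were called higher and 0 lower, beside 23.3% and 20.9% of all genes, with a median log2 ratio of 1.49. The counts were the same with the authors' factor, beside 32.2% and 15.7% of all genes. Ift27, a Rab-like subunit of intraflagellar transport, had 118 and 677 reads and was 3.88-fold higher (3.19 to 4.76). Dnajc27 had 249 and 1275 reads and was 3.47-fold higher (3.02 to 3.99). Among 5 kinases and phosphatases of Rabs, 1 (20%) was called higher and 2 (40%) lower, beside 23.3% and 20.9% of all genes. Ppm1h, a phosphatase that removes phosphate from Rabs modified by Lrrk2, had 5943 and 20164 reads and was 2.3-fold higher (2.23 to 2.37). Its relative Ppm1j had 1352 and 21.8 reads and was 91.5-fold lower (59.7 to 145). Lrrk1, a kinase of Rab7, had 10587 and 5446 reads and was 2.87-fold lower (2.78 to 2.97).

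**Figure D5:**
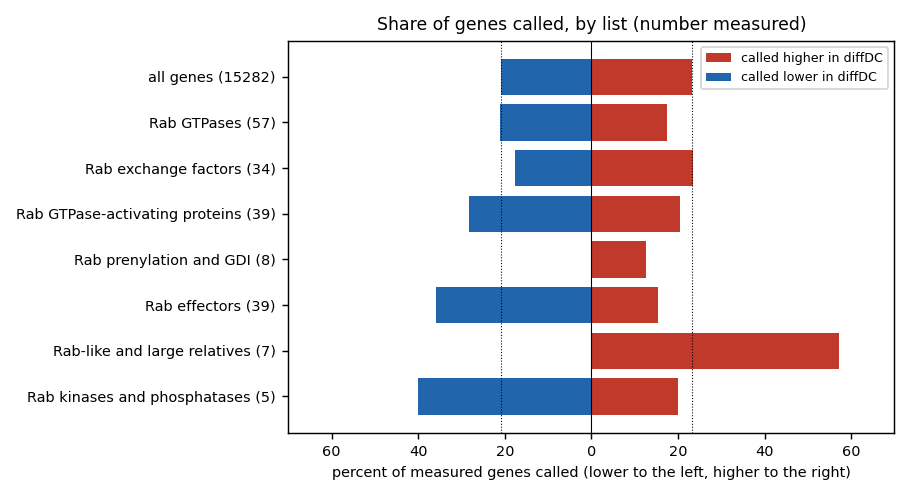
Percent of measured genes called higher (right) and lower (left) in diffDC for all 15282 genes, the 57 Rab genes and the 6 lists of Rab regulators and effectors, with the number measured in brackets and dotted lines at the shares of all genes. The effectors show 35.9% called lower beside 20.9% of all genes, and the 7 Rab-like genes 57.1% called higher beside 23.3%.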

How the data were processed

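Total RNA taken up in TRIzol was sequenced on an Illumina HiSeq instrument, per the labels' protocols. The authors' deposited read numbers were taken to be expected counts (estimated counts), since many carry decimals; how they were pooled, and the aligner, counter and statistical test, are not given in the sources used here. The builds GRCm38.p4 and mm10 are named in the submitters' processing notes. The authors' deposited table also gave a log2 ratio, a gene length and a p-value and q-value per gene, per the file headers. The headers do not say which numbers the p-value and q-value were made from. For 14572 of 14573 genes with reads in both columns, the log2 ratio equalled the log2 read ratio less a constant factor, within 0.001. Columns not used include the deposited direction score and annotation.

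Columns were scaled with TMM (edgeR 4.0.16 in R 4.3.3), and ratios received exact Clopper-Pearson 95% counting intervals (scipy 1.17.1); the interval of a ratio of 2 genes is a normal one on the log scale. With 0 reads, 0.5 was used in the fit and a floor of 3 reads for the printed folds. The planned edgeR test over libraries could not be made, since each group has 1 value, and calls rest on size and counting error. Alternatives were totals, median of ratios (DESeq2 1.42.0), the authors' factor, limits of 1.5-fold and 3-fold, means of at least 1 or 5 CPM, 1 read in place of 0, whole read numbers only (within 0.005) and other gene lengths. Levels used the exon union of GENCODE M21, in which all 57 members matched. Protein identity came from alignments of 1 coding sequence per gene (Biopython 1.88). A transcript tagged as principal in the annotation was taken first, and the longest protein among transcripts of equal tag.

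The rule named every called Rab gene, the 10 highest per length, related pairs with different calls, and in each other list the 2 largest rises and falls among called genes above a 1 CPM mean. Members and lists were chosen with earlier results of these data known. The marker lists come from known function. Sytl5, Rasef, Ccl19, Ccl21a, Cxcl13 and Emcn were not analysed here.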

Additional observations from a re-analysis of the deposited data

How the results depend on the processing

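The Rab calls were compared under every alternative except those that need values per library. No called Rab gene could change direction under these settings, so their constant direction is no result. A call needs at least 2-fold, and a scaling shifts all genes by a constant. The log2 library ratio of diffDC over maDC was 0.56 with TMM, 0.38 with totals, 0.58 with median of ratios and 0.13 with the authors' factor. The median log2 ratio of the Rab genes was 0.26 with totals and 0.51 with the authors' factor. With totals, Rab13 and Rab27a lost the lower call and Rab1b and Rab32 gained the higher call; with the authors' factor, 4 named Rab genes lost and 3 gained a call, and with the median of ratios all 30 named log2 ratios held. At a 3-fold limit, 6 Rab genes were higher and 5 lower, and 13 regulators and effectors were higher and 23 lower. At a 1.5-fold limit, 13 Rab genes were higher and 17 lower, and 37 regulators and effectors were higher and 51 lower. With a mean of at least 5 CPM, 5 Rab genes (12.8%) were higher and 7 (17.9%) lower. At that level 20.8% of all genes were higher and 16.8% lower. Among genes with whole read numbers only, 6 Rab genes were higher and 7 lower, and 9 regulators and effectors were higher and 8 lower. This setting and the CPM limits leave fewer genes by construction. For this setting and the 1.5-fold and 3-fold limits, the shares of all genes were not computed. Those counts therefore stand without a background. With the longest transcript, or with the authors' deposited length (chosen after seeing the data), 9 of the 10 Rab genes highest by the sum of both pools stayed, with Rab2a leaving.

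No paired analysis was possible because each group has 1 pooled column and no column for a library. Leaving out each replicate was not run for the same reason. Depth limits Rab25, Rab39 and Rab39b, which had at most 10 reads in either pool, and every call rests on counting error alone.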
